A study of Mus musculus with 8 samples.

Results

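Described here are 10 imprinted genes outside the Dlk1-Meg3 cluster, Peg3, Zim1, Igf2, H19, Airn, Igf2r, Mest, Plagl1, Sgce and Grb10, in mouse muscle stem cells cultured for 48 h and in freshly sorted ones. They are 10 of the 45706 lines of the gene table, taken by symbol. The genes were chosen by a list drawn up with the difference between cultured and fresh libraries in view, so that difference is given as a description, with no p-value for any of the 10. All 10 passed the filter on low counts that left 19054 genes.

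An imprinted gene is read from only one parental copy, and DNA methylation laid down in the egg or the sperm marks which one. Many imprinted genes act on fetal growth. In the mouse, Igf2, Peg3, Mest, Plagl1, Sgce and Airn are known to be read from the paternal copy, and H19, Igf2r, Zim1 and, in most tissues, Grb10 from the maternal copy. In muscle, Peg3 and Igf2 are known from progenitor cells, and several of these genes are highest before birth and decline afterwards.

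The samples were sorted cells of the hindlimb muscles of wild-type female C57BL/6 mice aged 8 to 12 weeks, positive for α7-integrin and CD34 and negative for CD45, CD11b, Sca1 and CD31. The cultured group held 3 libraries of such cells grown for 48 h on a hydrogel of 12 kPa in medium with 20% fetal bovine serum, and all 3 were sequenced in run 2. The fresh group held 5 libraries, of which fresh 4 and 5 were sequenced in run 2 beside the cultured ones and fresh 1 to 3 in run 1. RNA was amplified as cDNA before sequencing, and the labels do not say that each library had its own animals or culture, so p-values measure the spread between these libraries, which may be technical.

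Library totals were 16654631 to 20068154 counts in cultured and 13919440 to 20055185 counts in fresh libraries. Levels are CPM, counts scaled to an equal total per library with TMM factors. Muscle stem cell markers were found in both groups, with Pax7, the transcription factor that defines these cells, at 77.2 ± 22.2 CPM in cultured and 1156 ± 280.1 CPM in fresh libraries (SD, n = 3 and 5). The 9 muscle stem cell markers summed to 600 to 650 CPM in cultured and 2775 to 4001 CPM in fresh libraries. Summed markers of 5 other cell types were also higher in every fresh library than in every cultured one, and those of muscle fibres overlapped. The 8 fibro-adipogenic markers summed to 9.91 to 20.8 CPM in cultured and 892 to 1311 CPM in fresh libraries. The 8 pericyte and smooth muscle markers summed to 22.2 to 29.5 CPM in cultured and 441 to 2645 CPM in fresh libraries, with Abcc9 and Kcnj8 at 0 in all cultured libraries and the lowest fresh sum in fresh 1. The 5 Schwann cell markers summed to 0.0525 to 3.45 CPM in cultured and 50.3 to 808 CPM in fresh libraries, with Sox10 and S100b at 0 in culture, as were Ly6a and Pi16 of the fibro-adipogenic, Kdr and Cldn5 of the endothelial and Lyz2 and Cd79a of the blood markers (Cldn5 did not pass the filter on low counts). Endothelial markers summed to 0.718 to 41.1 CPM in cultured and 89.6 to 131 CPM in fresh libraries, blood markers to 0.254 to 5.90 CPM in cultured and 25.1 to 71.8 CPM in fresh libraries, and muscle fibre markers to 10.9 to 77.3 CPM in cultured, highest in cultured 1, and 27.7 to 29.8 CPM in fresh libraries, with Myh2 at 0 in culture. The part of these cells in the results below was not tested, and in such bulk samples fewer cells of a type and less RNA per cell cannot be told apart.

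The genes lie on 5 chromosomes, and several are neighbours. Coordinates are from GENCODE M21, an annotation of mm10. Peg3 (ENSMUSG00000002265) lies at chr7:6703892-6730431 and Zim1 (ENSMUSG00000002266) beside it at chr7:6671269-6696450, both on the minus strand. Their RefSeq promoter windows, 250 bases before to 50 bases after the start on GRCm38.p6, are shown because these 2 zinc finger genes kept close proportions in most libraries. The first is chr7:6730370-6730669 and the second chr7:6696383-6696682, both read on the minus strand. Capitals mark GGGGCCCC, a motif reported for PLAGL1, the protein of another of the 10 genes.
Peg3: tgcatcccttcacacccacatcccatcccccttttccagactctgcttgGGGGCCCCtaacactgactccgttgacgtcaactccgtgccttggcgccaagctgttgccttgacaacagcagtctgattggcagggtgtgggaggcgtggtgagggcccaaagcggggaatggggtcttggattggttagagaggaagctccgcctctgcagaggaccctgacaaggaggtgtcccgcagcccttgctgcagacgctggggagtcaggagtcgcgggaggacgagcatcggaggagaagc
Zim1: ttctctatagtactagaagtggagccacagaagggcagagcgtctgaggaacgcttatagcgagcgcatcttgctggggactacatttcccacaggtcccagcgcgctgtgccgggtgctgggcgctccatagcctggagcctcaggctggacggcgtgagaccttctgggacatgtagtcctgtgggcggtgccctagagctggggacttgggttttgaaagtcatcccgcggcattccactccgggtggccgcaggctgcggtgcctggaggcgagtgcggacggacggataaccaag
The motif, the same on both strands, stood once in the Peg3 window, 201 bases before the start, and not in the Zim1 window. It was found in 354 of all 32851 RefSeq windows (1.08%) and in 1 of the 14 windows of the 8 genes that had one. GCCATNTT, a motif of YY1, was searched on both strands and found in 6.05% of all windows and in 0 of these 14. A match is letters only and shows no binding.

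Igf2 (chr7:142650766-142666816) and H19 (chr7:142575529-142578143) also lie together on the minus strand, 72623 bases apart. Igf2r (chr17:12682406-12769664, minus strand) and its antisense transcript Airn (chr17:12741311-12860136, plus strand) share 28354 bases of their gene bodies and 0 bases of annotated exons. Mest (chr6:30723547-30748465, plus strand) overlaps Copg2 on the other strand over 912 bases, 23.1% of its exon length, and Sgce (chr6:4674350-4747207, minus strand) lies on the same chromosome. Plagl1 is at chr10:13060504-13131694 on the plus strand and Grb10 at chr11:11930508-12038683 on the minus strand. No source used here says whether strand was used in counting, so reads over the shared Mest and Copg2 exons cannot be told apart. Of the exon length of Igf2, 62.8% also lies in Gm49394, a gene model on the same strand, so its counts could have been split between the 2 models.

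Of these transcripts, 3 also carry miRNAs, and 1 mature miRNA of each is shown, in RefSeq's sequence, because they lie within 3 of the genes described. Capitals mark the seed, bases 2 to 8. They are miR-675-5p from an H19 exon (chr7:142577112-142577133), miR-483-3p from an Igf2 intron (chr7:142654932-142654952), both on the minus strand, and miR-335-5p from a Mest intron (chr6:30741314-30741336, plus strand).
mmu-miR-675-5p: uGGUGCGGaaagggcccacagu
mmu-miR-483-3p: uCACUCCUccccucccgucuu
mmu-miR-335-5p: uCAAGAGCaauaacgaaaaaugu
The 3 seeds differ from each other. The hairpin lines of these miRNAs were at 0 counts in all 8 libraries of this RNA-seq, which was not made from small RNA, so the values below are of the host transcripts alone.

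Most of the 10 genes were lower in cultured than in fresh libraries. Together they held 0.0675 to 0.0960% of all counts in cultured and 0.426 to 0.546% in fresh libraries. All 10 fold changes were negative, with a median log2 fold change of -2.75 beside -0.21 for all 19054 genes tested. Of the 10 genes, 6 (Peg3, Zim1, Igf2, Airn, Igf2r and Mest) were past an adjusted p of 0.05 in the edgeR quasi-likelihood test and lower in culture, beside 18.0% of all tested genes (8.87% were higher and 26.9% passed in either direction). None of the 10 was higher, also at an unadjusted p under 0.05 and by DESeq2, where 7 were lower in each. For 7 genes every cultured library lay below every fresh one, as for 26.1% of all tested genes. Since this contrast chose the genes, nothing is read from these counts.

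**Figure D1:**
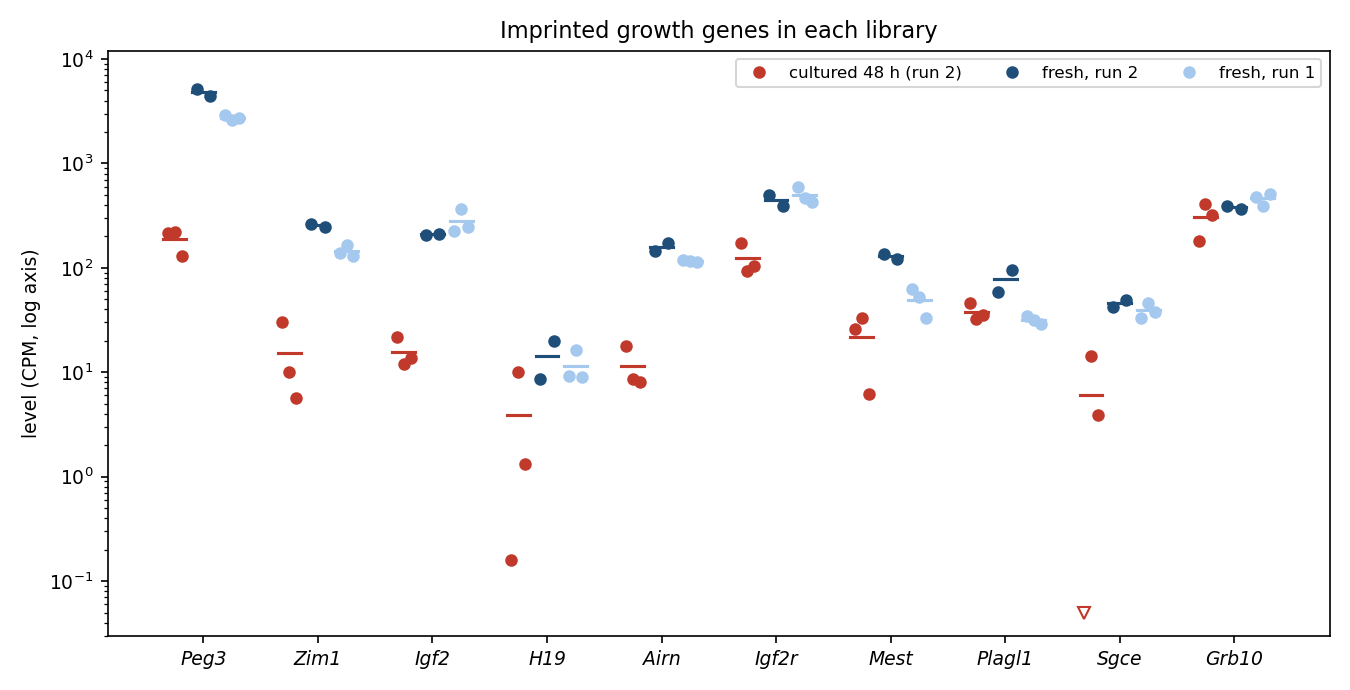
Level of each of the 10 genes in CPM on a log axis, with 1 point for each library (cultured red, fresh of run 2 dark blue, fresh of run 1 light blue) and a bar at the mean of each set. The open triangle at the foot marks Sgce at 0 in cultured 1. The red points lie below the blue ones for 7 genes, while those of H19, Plagl1 and Grb10 overlap them.

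Peg3, a zinc finger protein of growth and cell survival, was by far the most abundant of the 10 in fresh cells. It had 215, 219 and 129.9 CPM in cultured 1 to 3, against 2903, 2629, 2694, 5151 and 4453 CPM in fresh 1 to 5. The groups did not overlap, and fresh 4 and 5, of run 2, were the highest. Its mean was 188 ± 50.4 CPM in cultured and 3566 ± 1159 CPM in fresh libraries (SD, n = 3 and 5), a log2 fold change of -4.67 ± 0.28 (SE). That fold change comes from the fit with run as a term and so rests on the fresh libraries of run 2. Set against the run-1 fresh libraries alone it was -3.81. By mean CPM, Peg3 ranked 833 among all genes in cultured and 17 in fresh libraries. It held 20.6 to 30.2% of the counts of the 10 genes in cultured and 61.4 to 74.7% in fresh libraries.

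Zim1, the maternally read zinc finger gene 7442 bases from Peg3, had 30.2, 10.01 and 5.69 CPM in cultured 1 to 3, against 139.8, 165, 129, 263 and 248 CPM in fresh 1 to 5. Cultured 1 was the highest of its group, and no cultured library reached the fresh ones. The log2 fold change was -4.06 ± 0.61 (SE), and it was -3.21 against the run-1 fresh libraries alone and -4.96 without cultured 1. The ratio of Peg3 to Zim1 counts was 7.13 in cultured 1, 21.9 in cultured 2 and 22.8 in cultured 3, against 15.9 to 20.96 in the 5 fresh libraries. So the pair kept close proportions in 2 of the 3 cultured libraries and not in cultured 1. Usp29, a ubiquitin protease gene that starts 147 bases from Peg3 on the other strand and is not one of the 10, had 0 counts in all 3 cultured libraries and 5.18 ± 1.27 CPM in fresh libraries (SD, n = 5). Against the run-2 fresh mean of 4.20 CPM it fell at least 81.4-fold, taking 3 counts in all cultured libraries together as the floor (edgeR adjusted p = 0.00416). That call was lost in 1 of the 16 alternatives.

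Igf2, the fetal insulin-like growth factor, had 21.6, 12.1 and 13.7 CPM in cultured 1 to 3, against 227, 368, 244, 206 and 212 CPM in fresh 1 to 5. The groups lay far apart, and fresh 2 stood above the other fresh libraries. The means were 15.8 ± 5.13 CPM in cultured and 252 ± 66.7 CPM in fresh libraries (SD, n = 3 and 5), with a log2 fold change of -3.73 ± 0.34 (SE). It stayed between -4.10 and -3.35 in all 16 alternatives. H19, the non-coding RNA that shares enhancers with Igf2 and is read from the opposite parental copy, had 0.158, 10.2 and 1.32 CPM in cultured 1 to 3, against 9.20, 16.2, 8.91, 8.57 and 19.9 CPM in fresh 1 to 5. Cultured 1 and 3 were below all fresh libraries, but cultured 2 lay among them. These are 3, 198 and 26 counts in cultured libraries, against 136 to 307 in fresh ones. The H19 fold change of -1.88 ± 1.28 (SE) was not past the threshold and turned on single libraries. It was -1.25 without cultured 1, -4.20 without cultured 2, where it passed, and -1.10 without fresh 5. The Igf2 to H19 ratio of counts was 137, 1.19 and 10.3 in cultured 1 to 3, against 24.6, 22.7, 27.4, 24.1 and 10.7 in fresh 1 to 5. The cultured libraries lay on both sides of the fresh ones.

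Igf2r, the receptor that takes Igf2 into lysosomes for breakdown and also sorts lysosomal enzymes, had 172, 93.0 and 104 CPM in cultured 1 to 3, against 593, 466, 427, 498 and 388 CPM in fresh 1 to 5. All cultured libraries were below all fresh ones. The log2 fold change was -1.85 ± 0.31 (SE), with a range of -2.11 to -1.47 over the 16 alternatives. Airn, the paternally read antisense RNA that silences Igf2r on the same chromosome in the embryo, had 17.7, 8.57 and 8.08 CPM in cultured 1 to 3, against 119, 116, 113, 144 and 173 CPM in fresh 1 to 5. These groups did not overlap either, and cultured 1 was the highest of its group, as it was for Igf2r. The log2 fold change of Airn was -3.79 ± 0.38 (SE), and it was -3.30 against the run-1 fresh libraries alone.

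Within libraries, the proportions of these genes also differed between the groups. The ratio of Airn to Igf2r counts was 0.103, 0.0921 and 0.0779 in cultured 1 to 3, against 0.201, 0.249, 0.266, 0.289 and 0.445 in fresh 1 to 5. The ratio of Igf2 to Igf2r counts was 0.126, 0.130 and 0.132 in cultured 1 to 3, against 0.382, 0.789, 0.572, 0.414 and 0.548 in fresh 1 to 5. In both, every cultured library lay below every fresh one, and the ligand-to-receptor ratio varied little among cultured libraries. These ratios need no scaling between libraries, but they come from the contrast that chose the genes and carry no test.

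**Figure D2:**
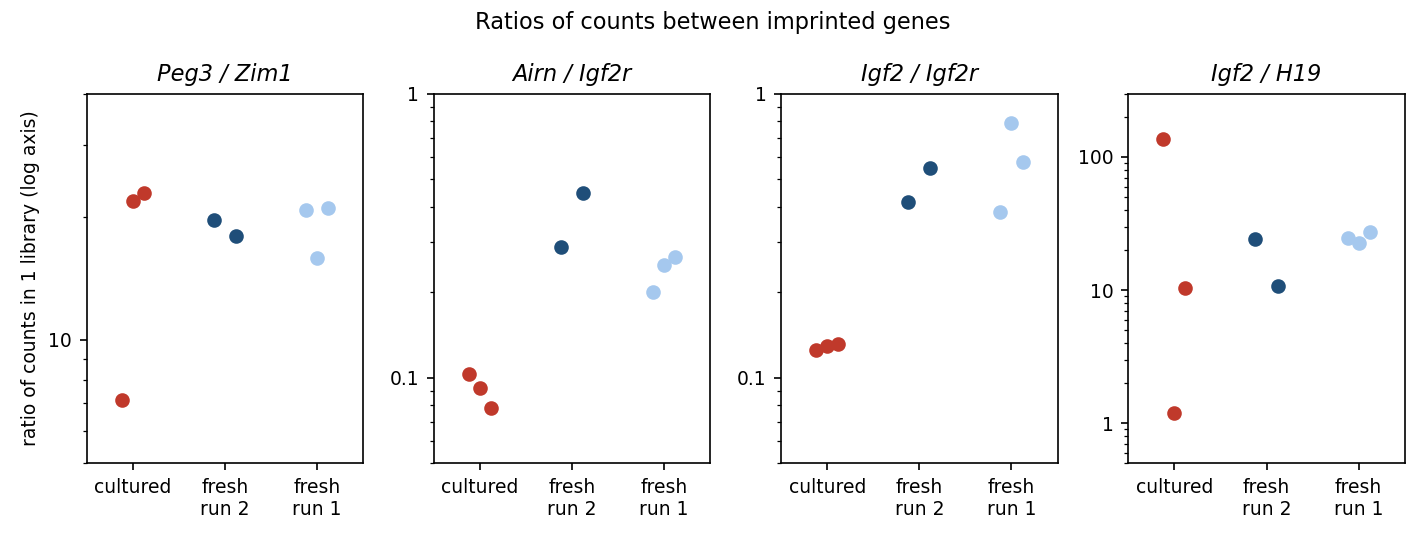
Ratio of counts between 2 genes within a library, on log axes, for Peg3 over Zim1, Airn over Igf2r, Igf2 over Igf2r and Igf2 over H19, with 1 point for each cultured (red), run-2 fresh (dark blue) and run-1 fresh (light blue) library. Airn over Igf2r lies at 0.0779 to 0.103 in cultured and 0.201 to 0.445 in fresh libraries, and Igf2 over H19 spreads from 1.19 to 137 in culture.

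Mest, an enzyme of the α/β-hydrolase family, had 26.1, 32.8 and 6.15 CPM in cultured 1 to 3, against 62.9, 52.5, 33.2, 137 and 122 CPM in fresh 1 to 5. Cultured 2 and fresh 3 nearly met, and the fresh libraries of run 2 stood above those of run 1. The log2 fold change was -2.58 ± 0.60 (SE). It was -1.91 without the run term and -1.13 against the run-1 fresh libraries alone, where it did not pass the threshold, and it also missed it without fresh 4 (-2.45) or without fresh 5 (-2.65). Plagl1, a zinc finger transcription factor that switches on other imprinted genes, had 46.4, 32.6 and 35.5 CPM in cultured 1 to 3, against 34.5, 31.4, 28.9, 58.9 and 96.4 CPM in fresh 1 to 5. All cultured libraries were below both fresh libraries of run 2. Cultured 1 and 3 were above all fresh libraries of run 1, and cultured 2 lay among them. Its sign therefore depended on the fresh libraries used, with -1.02 ± 0.34 (SE) in the fit with run as a term, -0.39 without the run term and 0.33 against the run-1 fresh libraries alone. It did not pass the threshold in the fit with run as a term.

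Sgce, ε-sarcoglycan of the complex that links the muscle cell membrane to its cytoskeleton, had 0, 14.4 and 3.91 CPM in cultured 1 to 3, against 33.2, 46.2, 38.1, 42.3 and 49.7 CPM in fresh 1 to 5. The groups did not overlap. A count of 0 in cultured 1 allows up to 0.158 CPM (3 counts, counting error only), while cultured 2 had 280 counts. The log2 fold change of -2.91 ± 1.34 (SE) did not pass the threshold, but it did without cultured 1 (-2.27) and without cultured 2 (-4.49). Grb10, an adaptor that dampens insulin and IGF receptor signals, had 182, 412 and 323 CPM in cultured 1 to 3, against 482, 394, 513, 391 and 369 CPM in fresh 1 to 5. Cultured 2 lay among the fresh libraries, and cultured 1 was the lowest of all 8. The log2 fold change of -0.31 ± 0.32 (SE) was smaller than that of the other 9 genes. It was 0.14 without scaling factors, which moved the median of all genes by 0.24, and 0.01 without cultured 1.

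**Figure D3:**
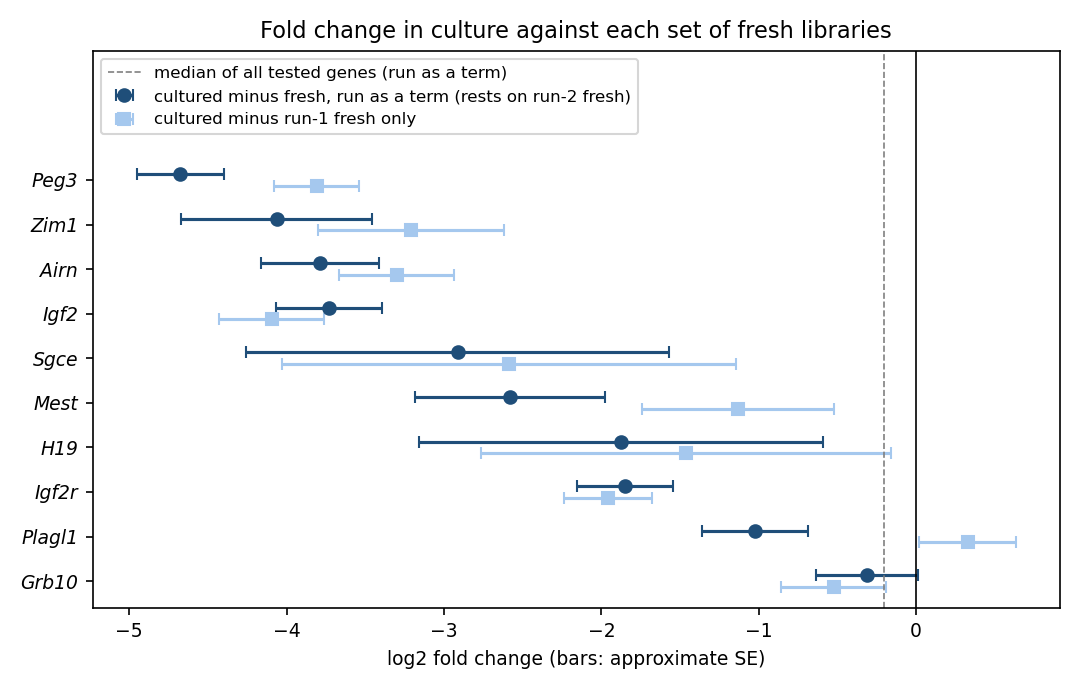
Log2 fold change of each gene in culture with its approximate SE as a bar, from the fit with run as a term (dark circles) and against the run-1 fresh libraries alone (light squares), with the median of all tested genes as a dashed line. Peg3, Zim1, H19, Airn, Mest, Plagl1 and Sgce lie further left in the first, Igf2, Igf2r and Grb10 in the second, and Plagl1 changes sign, with -1.02 and 0.33.

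The 6 genes read from the paternal copy had a median log2 fold change of -3.32, and 4 of them were past the threshold. The 4 maternally read genes had a median of -1.86, and 2 of them were past it, all 6 of these being lower, beside 18.0% of all tested genes. As this contrast chose the genes, nothing is read from these counts either. Zim1, at -4.06, was the lowest of the maternally read genes, and Plagl1, at -1.02, the nearest to 0 of the paternally read ones. Reads were not assigned to parental copies, so these are labels of the genes and not measurements of imprinting.

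Fresh libraries of the 2 runs were also compared with a test, since the runs did not choose the genes. The same fresh libraries entered the contrast that did choose them, so these p-values may depend on that choice. In the edgeR fit to all 8 libraries, 36 genes (0.189%) differed between run-2 and run-1 fresh libraries, and 0 of the 10 did. At an unadjusted p under 0.05 there were 3 of the 10, all higher in run 2. The share of all genes at that cut was not counted, so nothing is read from it. DESeq2 called 903 genes and 1 of the 10, Plagl1, with a log2 fold change of 1.28 (DESeq2 adjusted p = 0.0165). In an edgeR fit to the 5 fresh libraries alone, 21.5% of 21313 genes differed in either direction. Of the 10, 4 differed, all higher in run 2. These were Mest, with a log2 fold change of 1.42 ± 0.28 (SE, edgeR adjusted p = 0.0291), Plagl1 with 1.33 ± 0.26 (adjusted p = 0.0289), Zim1 with 0.86 ± 0.20 (adjusted p = 0.0299) and Peg3 with 0.85 ± 0.20 (adjusted p = 0.0303). Each was higher in both run-2 fresh libraries than in all 3 run-1 fresh libraries. In the fit to all 8 libraries the same values for Mest, Plagl1, Zim1 and Peg3 were 1.39 (adjusted p = 0.301), 1.30 (adjusted p = 0.0740), 0.82 (adjusted p = 0.617) and 0.81 (adjusted p = 0.138). Without scaling factors in that fit they were 1.00, 0.93, 0.44 and 0.43. So Peg3, Zim1 and Mest passed in the fit to the fresh libraries alone and in neither edgeR nor DESeq2 fitted to all 8. The count of 36 genes was 117 without cultured 1, 17 without fresh 1, 18 without fresh 2, 3 without fresh 4 and 1 without fresh 5, and none of the 10 was called in any of these. Mitochondrial ribosomal RNA took 23.2 to 26.5% of counts in run-2 and 5.25 to 10.5% in run-1 fresh libraries. Genes with at least 1 count numbered 20480 and 20898 in run-2 and 32710 to 34689 in run-1 fresh libraries, and 15415 to 17852 in cultured ones. The filter on low counts left out 0.0984 to 0.127% of counts in run-2 and 0.470 to 0.665% in run-1 fresh libraries. The part of these differences between the runs in the results was not tested.

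Within the fresh libraries of run 1, marker sums set fresh 1 apart. Pericyte and smooth muscle markers summed to 441 CPM in fresh 1, against 2645 and 2400 CPM in fresh 2 and 3. Schwann cell markers summed to 50.3 CPM in fresh 1, against 808 and 444 CPM in fresh 2 and 3. A link between these sums and the 10 genes was not tested. The 10 genes differed between fresh 1 and the mean of fresh 2 and 3 by log2 values of -0.45 for H19 to 0.55 for Mest, with 0.13 for Peg3, 0.05 for Airn, -0.43 for Igf2 and 0.41 for Igf2r.

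Levels per kilobase of annotated exon give a rough order of different genes. Counts of Igf2 and Mest are uncertain, as their exons overlap other gene models, and Airn was scaled by 3597 exon bases alone. On this scale Peg3 was highest in fresh cells with 268 ± 87.0 CPM per kb (SD, n = 5). Igf2r followed with 51.0 ± 8.40, Grb10 with 47.3 ± 7.00, Igf2 with 44.0 ± 11.7 and Airn with 37.0 ± 7.01 CPM per kb, neighbours that did not differ beyond their spread. Zim1 (23.4 ± 7.71 CPM per kb) and Mest (20.7 ± 11.5) came next, and Plagl1 (6.40 ± 3.65), H19 (5.11 ± 2.12) and Sgce (3.95 ± 0.612) were lowest. In cultured cells Grb10 was highest with 33.6 ± 12.8 CPM per kb (SD, n = 3), followed by Peg3 with 14.1 ± 3.78 and Igf2r with 13.2 ± 4.63 CPM per kb, which did not differ beyond their spread. The other 7 genes lay between 5.50 CPM per kb for Mest and 0.574 CPM per kb for Sgce. Grb10 and Peg3 thus stood in opposite order in the 2 groups, by mean level per length.

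Other imprinted genes were counted from a list of 73, of which 58 were tested. In the edgeR test 18 fell, 5 rose and 35 did not pass, with a median log2 fold change of -1.64. The Dlk1-Meg3 cluster held 5 of the 18 that fell, with a median of -9.47. Outside it, 13 of 53 fell and 5 rose, beside 18.0% and 8.87% of all tested genes, with a median of -1.28 beside -0.21 for all genes. Among those that fell, Calcr, the calcitonin receptor of resting muscle stem cells, had 1.45 ± 1.64 CPM in cultured and 175 ± 121 CPM in fresh libraries (SD, n = 3 and 5), a log2 fold change of -7.72 ± 1.13 (SE, edgeR adjusted p = 0.0021). It was -5.81 against run-1 fresh libraries alone, -7.08 without cultured 1 and -9.03 without cultured 2. Dcn, decorin of the extracellular matrix, had 5.93 ± 2.86 CPM in cultured and 345 ± 165 CPM in fresh libraries, with -5.54 ± 0.59 (SE, edgeR adjusted p = 0.000519), and it is also one of the fibro-adipogenic markers. Nap1l5, a nucleosome assembly protein relative, had 1 count in the cultured group and 22.9 ± 9.66 CPM in fresh libraries, a ratio to run-2 fresh libraries of 0.000554 with a 95% counting interval of 1.4e-05 to 0.0031 (edgeR adjusted p = 0.000312). Cdkn1c, the imprinted inhibitor of the cell cycle, had 0 counts in culture and fell at least 440.0-fold against run-2 fresh libraries (edgeR adjusted p = 0.000788), and was chosen after its values were seen.

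The 5 that rose were Tnfrsf23, Cpa4, Blcap, Ampd3 and Kcnq1ot1, and the last 4 are named to complete the count. Tnfrsf23, a decoy receptor of the tumour necrosis factor family, had 44.4 ± 23.7 CPM in cultured and 2.38 ± 2.55 CPM in fresh libraries (SD, n = 3 and 5), with 6.43 ± 1.29 (SE, edgeR adjusted p = 0.00745). It was 3.69 against run-1 fresh libraries alone, 9.33 without fresh 4 and 5.57 without fresh 5. Kcnq1ot1, the paternally read antisense RNA of the domain that holds Cdkn1c, had 576 ± 75.1 CPM in cultured and 258 ± 69.8 CPM in fresh libraries. Its log2 fold change was 0.82 ± 0.23 (SE, edgeR adjusted p = 0.0271), and it was 1.501 against run-1 fresh libraries alone, while the call was lost without cultured 3, without fresh 4, without fresh 5 and with run-2 libraries alone. Ampd3, an AMP deaminase, had 222 ± 49.1 CPM in cultured and 69.1 ± 14.4 CPM in fresh libraries, with 1.75 ± 0.33 (SE, edgeR adjusted p = 0.00607). Blcap had 32.7 to 58.7 CPM in cultured and 8.79 to 14.03 CPM in fresh libraries, with 2.01 ± 0.46 (SE, edgeR adjusted p = 0.0128), a call lost without fresh 4 or fresh 5. Cpa4, a carboxypeptidase, had 5.41 ± 3.77 CPM in cultured and 0.912 ± 0.974 CPM in fresh libraries, with 7.10 ± 1.60 (SE, edgeR adjusted p = 0.0119). That call was lost in 5 of the 16 alternatives, among them without fresh 4 (6.29), without the run term (2.56), against run-1 fresh libraries alone (1.93) and with run-2 libraries alone (adjusted p = 0.0567), and the value was 6.38 without cultured 3 and 9.61 without fresh 5. Airn, a silencing RNA of the same kind, went the other way, at -3.79.

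**Figure D4:**
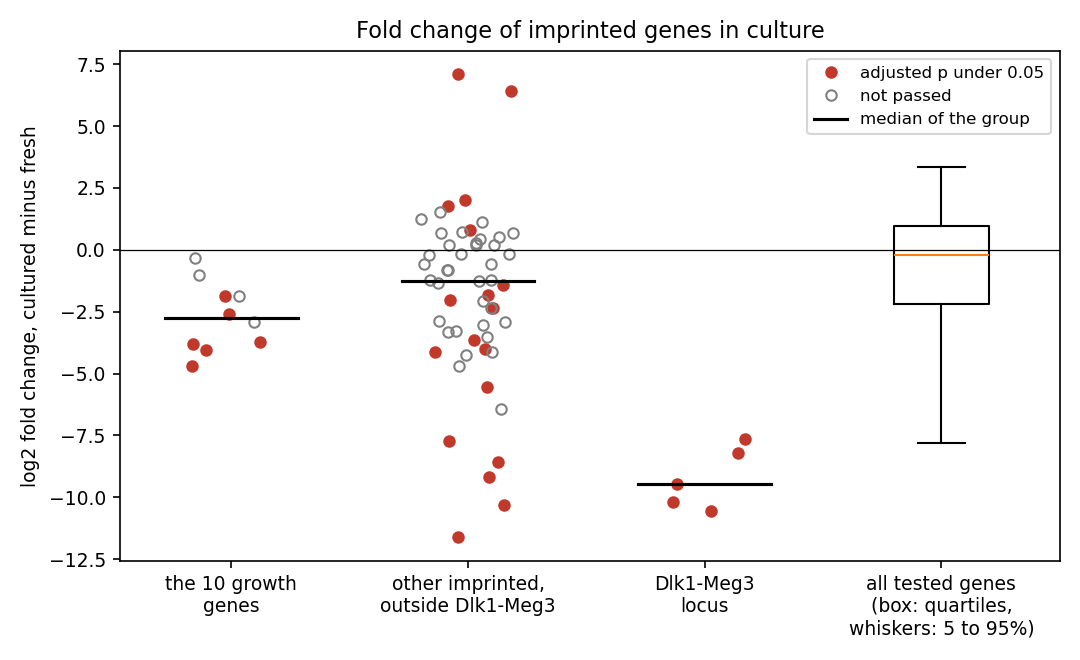
Log2 fold change in culture of the 10 genes, of other imprinted genes outside the Dlk1-Meg3 cluster, of that cluster and of all tested genes. Filled points passed an adjusted p of 0.05, open ones did not, black bars are medians (-2.75, -1.28 and -9.47), and the box holds the quartiles of all tested genes with whiskers at the 5th and 95th percentiles.

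Of 16 tested genes of the insulin-like growth factor system, in which binding proteins hold Igf1 and Igf2 and Igf1r and Insr pass on their signal, 5 fell and 0 rose in the edgeR test, with a median log2 fold change of -2.55. At an unadjusted p under 0.05, 8 were lower and 2 higher, and DESeq2 called the same numbers, 8 lower and 2 higher. Of all 19054 tested genes, 18.0% fell in the edgeR test, and DESeq2 called 4342 lower and 2498 higher. No share of all genes was counted at the unadjusted cut. The list's count of 5 called was 8 without cultured 1. Igfbp5, a binding protein, had 8.91 ± 3.90 CPM in cultured and 1548 ± 325 CPM in fresh libraries (SD, n = 3 and 5), with -7.36 ± 0.47 (SE, edgeR adjusted p = 5.91e-05). Igf1, the other ligand, had 0.119 ± 0.128 CPM in cultured and 58.1 ± 38.5 CPM in fresh libraries, with -9.60 ± 0.81 (SE, edgeR adjusted p = 0.000186), -7.87 against run-1 fresh libraries alone, -8.99 without cultured 1 and -10.68 without cultured 3. The binding proteins Igfbp4 (-4.40 ± 0.66, adjusted p = 0.00234) and Igfbp7 (-6.34 ± 0.86, adjusted p = 0.0015) also fell, to -5.41 for Igfbp4 without cultured 2 and -7.32 for Igfbp7 without cultured 3. The receptors Igf1r (-1.38, adjusted p = 0.181) and Insr (-1.08, adjusted p = 0.162) did not pass.

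Of 19 genes of the mannose 6-phosphate route, by which Igf2r and its smaller relative M6pr carry enzymes to the lysosome, 3 fell and 3 rose, with a median of 0.35. These 6 calls were 31.6% of the list, beside 26.9% of all tested genes, and were 3 without fresh 4 and 3 without fresh 5. The lysosomal protease Ctsl fell by 1.28 ± 0.20 on the log2 scale (SE, edgeR adjusted p = 0.00286), with 145 ± 6.73 CPM in cultured and 395 ± 50.6 CPM in fresh libraries. Ctsb fell too (-1.33 ± 0.30, adjusted p = 0.0122), not so without scaling factors or without fresh 4, and so did the sorting receptor Sort1 (-5.93 ± 1.02, adjusted p = 0.00427), at -5.29 without cultured 1 and -6.66 without cultured 2. The glucuronidase Gusb rose (1.95 ± 0.57, adjusted p = 0.0342), a call lost without cultured 2 or 3, without fresh 1, 2 or 5 and with run-2 libraries alone, and at 2.96 without fresh 4. M6pr itself rose by 0.85 (adjusted p = 0.0401), a call kept in only 4 of the 16 alternatives.

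Genes of the complex that holds Sgce were counted too. Of 6 tested genes of the sarcoglycan and dystrophin complex 4 fell and 0 rose in the edgeR test, with a median log2 fold change of -3.85, and 6 were lower and 0 higher at an unadjusted p under 0.05 and by DESeq2. Among all 19054 tested genes, 18.0% fell in the edgeR test, and DESeq2 called 4342 lower and 2498 higher. The share of all genes at the unadjusted cut was not counted. The list's count of 4 was 2 without fresh 5, and it was 7 without cultured 1, where more genes passed the filter on low counts. Dmd, dystrophin, had 14.4 ± 4.06 CPM in cultured and 617 ± 265 CPM in fresh libraries (SD, n = 3 and 5), with -5.97 ± 0.30 (SE, edgeR adjusted p = 2.14e-05) and -4.83 against run-1 fresh libraries alone. Dag1, dystroglycan, had 180.2 ± 32.0 CPM in cultured and 2911 ± 719 CPM in fresh libraries, with -4.09 ± 0.33 (SE, edgeR adjusted p = 0.000157). Sgcb, β-sarcoglycan, fell by 1.44 ± 0.42 on the log2 scale (SE, edgeR adjusted p = 0.035), a call kept in only 5 of the 16 alternatives.

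Of 14 tested genes that set, keep or remove the methylation of imprinted regions, 4 fell and 3 rose, with a median of 0.32. These 7 calls were 50% of the tested genes of the list, beside 26.9% of all tested genes, and were 4 without fresh 4. Dnmt1, which copies methylation to new DNA strands, had 188 ± 63.8 CPM in cultured and 37.6 ± 7.96 CPM in fresh libraries (SD, n = 3 and 5), with 2.32 ± 0.39 (SE, edgeR adjusted p = 0.00412). Uhrf1, which brings Dnmt1 to replicating DNA, had 62.3 ± 29.8 CPM in cultured and 0.979 ± 1.16 CPM in fresh libraries, with 7.30 ± 1.48 (SE, edgeR adjusted p = 0.00771), 5.59 against run-1 fresh libraries alone, 6.49 without fresh 4 and 9.82 without fresh 5. Tet2, which oxidises methylated cytosine, had 73.2 ± 10.7 CPM in cultured and 413 ± 63.2 CPM in fresh libraries, with -2.68 ± 0.23 (SE, edgeR adjusted p = 0.000186). Its relative Tet1 fell too (-4.11 ± 0.99, adjusted p = 0.0158), a call lost without fresh 4, without fresh 5 and with run-2 libraries alone, and was at -6.26 without cultured 2.

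Genes whose levels followed those of the 3 most abundant of the 10 were sought over all 8 libraries, among 8168 genes with a mean of at least 10 CPM, by Pearson's r of log2 CPM. Because the 2 groups differed in 26.9% of tested genes, high values are frequent, and r is given as a description. Closest to Peg3 were Nfib (0.997), Fos (0.995) and Fam49a (0.995), and of the 10 genes Airn came nearest, at rank 71 with 0.985. Closest to Igf2r were Kctd15 (0.994), Aldh2 (0.993) and Insig1 (0.992), with Igf2 at rank 71 (0.971) and Airn at rank 74 (0.970). Closest to Grb10 were Tlcd1 (0.979), Pex5 (0.972) and Srr (0.969), with Sgce at rank 136 (0.911), and r with Plagl1 was -0.27.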

How the data were processed

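RNA-seq was analysed in 8 libraries of sorted mouse muscle stem cells, 3 cultured and 5 fresh, grouped by the labels. The authors deposited 1 table of expected counts, estimated with RSEM. The aligner STAR and the build mm10 are named too, per the submitters' processing notes, with versions and annotation not given in the sources used here. Values were rounded to whole numbers (50.1% of those above 0 were not whole), and 92 spike-in lines were left out. RSEM divides reads that fit several genes, so overlapping genes are uncertain. The labels name no molecular identifiers, and the counting interval and the floors therefore hold counting error alone.

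Genes were kept by filterByExpr, which left out 0.0984 to 0.665% of counts, and TMM factors were 0.792 to 1.18. The test was the quasi-likelihood test of edgeR 4.0.16 in R 4.3.3 with run and culture as terms (5 residual degrees of freedom) and Benjamini-Hochberg adjustment at 0.05 over all tested genes. With no cultured library in run 1, the culture coefficient rests on fresh 4 and 5. Standard errors are approximate. The steps were tested on simulated data. Alternatives were other scaling, no filter, DESeq2 1.42.0, no run term, each run's fresh libraries alone, a replicate block, the 5 fresh libraries alone for the runs, and each library left out. All 8 libraries differed from each other by more than sampling noise. For log2 CPM a prior count of 2 was used. Identifiers matched GENCODE M21 for 98.8% of lines that had one.

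The 10 genes and the other lists were chosen with earlier results of these data known. Named are the 10, for every list the 4 (or fewer) called genes that moved furthest and averaged 10 CPM or more, some of the neighbours within 250 kb picked by distance or call, and the 3 genes most like each of the 3 most abundant. Some genes were named outside these rules after their values were seen. Among them are Cdkn1c, Cpa4, Blcap, Ampd3, Kcnq1ot1, M6pr, Igf1r and Insr. Promoter and miRNA sequences are from RefSeq (GRCm38.p6), and 8 of the 10 genes had a promoter window.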

Additional observations from a re-analysis of the deposited data

Results flagged for a closer look

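In the fresh libraries Igf2 stood at 368 CPM in fresh 2, far from the other 4, which lay between 206 and 244 CPM. The same library had the highest Schwann and pericyte marker sums, 808 and 2645 CPM, and a link with Igf2 was not tested. The ratio of Igf2 to H19 counts was 10.7 in fresh 5, far below the 22.7 to 27.4 of the other 4 fresh libraries, with H19 at 19.9 CPM, its highest fresh value, and Igf2 at 212 CPM. A library can stand apart by chance, and how often was not tested here. Each of the 10 genes and several ratios were looked at.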

How the results depend on the processing

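Of the 10 genes, 5 to 8 passed the threshold in culture over the 16 alternatives (6 in the fit reported). Their median of -2.75 was -2.31 without scaling factors, -2.36 without the run term, -2.27 against run-1 fresh libraries alone and -3.11 with the replicate block, and -3.60 to -2.37 with 1 library left out. Peg3, Zim1, Igf2, Airn and Igf2r were negative and past the threshold in all 16. As the contrast of cultured and fresh libraries chose the genes, these calls only describe how the fits differ, and nothing more is read from them. The labels do not say that replicate numbers pair the libraries. Same-numbered deviations correlated at 0.031, 0.025 and 0.0063 and the others at -0.031 to 0.016, and with so few libraries this cannot decide it. Under the block, which uses run-1 fresh libraries, Peg3 was -3.84, Mest -1.39, Plagl1 0.32 and, outside the 10, Cpa4 1.79, no longer called. The median of all genes moved by 0.24 without scaling, -0.36 without the run term and -0.76 with the block.

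With run-2 libraries alone, 1013 genes were higher and 1767 lower in culture (1691 and 3431 in the fit reported), and the calls were 3 in the lysosomal route (6), 4 in the methylation list (7) and 8 among locus neighbours (17). The block gave 1384 lower genes and 9 neighbours. Called genes of the insulin-like growth factor list (5) were 10 with DESeq2 and 11 without the run term or against run-1 fresh libraries alone. With 1 library left out, genes higher in culture were 896 (without fresh 5) to 2198, with 908 without fresh 4, the growth factor list 5 to 8, the lysosomal route 3 to 7, the methylation list 4 to 8 and the sarcoglycan list 2 to 7. Genes differing between the runs (36) were 81 without the filter, 903 with DESeq2, 4574 in fresh libraries alone and 1 to 117 with 1 library left out, and those among the 10 (0) were 1 with DESeq2 and 4 in fresh libraries alone. The cause of these shifts was not tested.

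Counts were lowest for H19 and Sgce, with 3 and 0 in cultured 1, the library with the largest total (20068154), against 198 and 280 in cultured 2. Run and culture cannot be told apart against run-1 fresh libraries, and only 2 fresh libraries shared the run of the cultured ones.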

Other observations

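Genes around the 10 moved in both directions. Within 250 kb, 42 other genes were tested, of which 11 fell and 6 rose in culture, beside 18.0% and 8.87% of all tested genes. Their median log2 fold change was -0.66 beside -0.21 for all genes. Of the genes that fell, Gm23833, Gm16574 and Gm7162 lie within the Airn gene body and share 0 bases with its annotated exons. Whether their counts are separate from those of Airn was not tested. These counts overlap in part with those of the lists above. The neighbours Usp29, Slc22a3, Casd1 and Cpa4 were also counted among the other imprinted genes, and Ctsd in the lysosomal route. Near H19, 2 of 10 other genes fell and 1 rose. Lsp1 fell (-5.66 ± 1.02, SE, edgeR adjusted p = 0.00512), a call lost with run-2 libraries alone. Ctsd rose (1.01 ± 0.26, adjusted p = 0.0212), a call lost in 7 of the 16 alternatives. Peg10, a retrotransposon-derived gene 99 bases from Sgce and read from the same parental copy, had 47.6, 83.1 and 121 CPM in cultured 1 to 3, against 62.9, 50.9, 87.4, 38.8 and 37.9 CPM in fresh 1 to 5, and did not pass (1.13 ± 0.43, SE, edgeR adjusted p = 0.0809). The ratio of Sgce to Peg10 counts was 0, 0.173 and 0.0324 in cultured 1 to 3 and 0.436 to 1.31 in fresh libraries, with no overlap. Near Airn and Igf2r, Tcp1, a subunit of the cytosolic chaperonin, rose (501.8 ± 69.2 CPM in cultured and 171 ± 30.2 CPM in fresh libraries, SD, n = 3 and 5, edgeR adjusted p = 0.00121). On the other side of Igf2r, Slc22a3, an organic cation transporter that Airn silences in the mouse placenta, had 1 count in the cultured group, in cultured 1, and 8.86 ± 1.88 CPM in fresh libraries. It fell, with a ratio to run-2 fresh libraries of 0.00185 and a 95% counting interval of 4.7e-05 to 0.0104 (edgeR adjusted p = 0.00193).

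Near Plagl1, Utrn, the dystrophin relative utrophin, fell by 2.24 ± 0.35 on the log2 scale (SE, edgeR adjusted p = 0.0028), and Ltv1, a ribosome assembly factor, rose by 1.25 ± 0.33 (adjusted p = 0.0221), a call lost without cultured 3, fresh 4 or fresh 5, without the filter on low counts and with run-2 libraries alone. Near Grb10, Fignl1, a DNA repair protein, rose by 5.36 ± 0.81 (adjusted p = 0.00255), and by 4.17 against run-1 fresh libraries alone. Near Sgce, the collagen gene Col1a2 fell by 7.23 ± 1.11 (adjusted p = 0.00271), with 1.09 ± 0.900 CPM in cultured and 145.5 ± 67.6 CPM in fresh libraries.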
